A study of Drosophila melanogaster with 2 samples.

Results

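The early and visceral mesoderm regulators described here are 6 genes, twi, sna, tin, bap, bin and zfh1, taken by name from the 13945 protein-coding genes of the 6 main chromosome arms of Drosophila melanogaster. They were followed through lists of peaks from chromatin immunoprecipitation and sequencing (ChIP-seq) of Lame duck (Lmd), and a peak was given to a gene when its summit lay in the gene body or within 10 kb of it. The samples were 2 biological replicates of a single group, whole embryos aged 0 to 18 h of the strain lmd-GFP, in which a transgene makes Lmd fused to eGFP, and the fusion was precipitated with an antibody against GFP. Both replicates carry the transgene, the promoter that drives it is not given in the labels, and embryos of wild type or control chromatin were not analysed here. Whole embryos mix the mesoderm with every other tissue, so a peak cannot be assigned to a cell type. The lists hold binding only, so the tissue itself could not be checked against markers.

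Lmd, a relative of the Gli proteins with DNA-binding zinc fingers, drives the differentiation of fusion-competent myoblasts, the cells that fuse onto muscle founders. The 6 genes encode transcription factors that act around or before that step. Twist (twi) and Snail (sna) set up the mesoderm at gastrulation, Twist as a basic helix-loop-helix activator and Snail as a zinc finger repressor of genes of neighbouring ectoderm. Tinman (tin) is an NK homeodomain factor that Twist activates and that dorsal mesoderm and heart need. Bagpipe (bap), another NK homeodomain factor, and Biniou (bin), a forkhead factor of the FoxF group, specify the visceral mesoderm, the source of gut muscle. Zfh1 is a zinc finger and homeodomain factor of the mesoderm, known as a repressor that restrains muscle differentiation.

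Peaks were called on both replicates together and on each replicate alone, in coordinates of dm6. For both replicates together there were a conservative set of 4998 peaks on the main arms and a wider set of 6361, and the sets of replicates 1 and 2 held 3929 and 5544. These 4 sets had passed a threshold on the irreproducible discovery rate (IDR), a score of how well peak ranks repeat between lists. Each replicate also had an unthresholded ranked list, of 112073 peaks for replicate 1 and 89892 for replicate 2, most of which are weak. The signal of a peak is the value given by the authors' peak caller, with no normalization stated, so it was used for ranks within a list, and values of both replicates are set side by side as deposited. The read depth is unknown. No test between conditions was possible with 1 group, and the values below are descriptions.

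Sequence around the peak of highest signal was read from genome Release 6 for tin, bin and zfh1, whose strongest peaks carry the results below. Each stretch is the summit with 100 bases on each side, on the plus strand, which is also the strand of each gene. Capitals mark matches to the motif words searched, and lower case letters match none. The tin stretch, chr3R:21378665-21378865, comes from a promoter peak of the wider set. It holds 1 capitalised word, the Twist E-box CATATG, 40 bp from the summit on the side of the gene. The bin stretch, chr3L:6989221-6989421, comes from the upstream peak of the conservative set. Its 38 capitalised bases are a Mef2 word joined to an overlapping FoxF word, a Tinman word, 2 more FoxF words and a homeodomain word. The zfh1 stretch, chr3R:30781678-30781878, comes from the intronic peak of the conservative set and holds 0 capitalised bases.
tin: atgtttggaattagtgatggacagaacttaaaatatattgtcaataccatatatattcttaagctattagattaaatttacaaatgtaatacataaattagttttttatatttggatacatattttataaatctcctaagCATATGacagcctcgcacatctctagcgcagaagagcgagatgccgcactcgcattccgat
bin: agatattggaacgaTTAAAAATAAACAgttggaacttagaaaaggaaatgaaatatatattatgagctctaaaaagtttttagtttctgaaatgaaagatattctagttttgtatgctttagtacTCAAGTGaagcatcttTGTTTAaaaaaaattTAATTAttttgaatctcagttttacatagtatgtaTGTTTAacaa
zfh1: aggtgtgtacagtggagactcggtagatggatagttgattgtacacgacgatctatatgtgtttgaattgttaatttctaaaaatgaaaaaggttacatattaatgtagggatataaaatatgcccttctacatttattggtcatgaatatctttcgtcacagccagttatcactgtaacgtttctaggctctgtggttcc

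Of the 6 genes, 3 (twi, bin and zfh1) had a summit of the conservative set within the gene body plus 10 kb, and sna, tin and bap had none. Among all protein-coding genes the share with such a summit was 62.6%, so 3 of 6 is not above the background. The wider set gave 4 of 6 genes, adding tin, against 70.0% of all genes. Replicate 1 alone gave 3 of 6, against 54.3% of all genes, and replicate 2 alone gave 4 of 6, against 69.1%. Longer genes have longer windows, and 4 of the 6 genes (sna, tin, bap and bin) have bodies under 5 kb. Of these 4, bin alone had a conservative summit, against 59.2% of the 10461 genes with bodies that short. In the wider set bin and tin had one, 2 of 4 against 66.8%, in replicate 1 bin had one, 1 of 4 against 50.9%, and in replicate 2 bin and tin had one, 2 of 4 against 66.1%.

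Near the transcription start sites (TSSs) of the 6 genes, tin alone had a summit, and not in every set. None of the 6 had a conservative summit within 500 bp of its own TSS, where 17.2% of all genes had one, and none had one in replicate 1, against 13.3%. In the wider set tin was the 1 gene of 6 with such a summit, against 21.4% of all genes, and in replicate 2 it was again tin, against 22.6%.

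**Figure D1:**
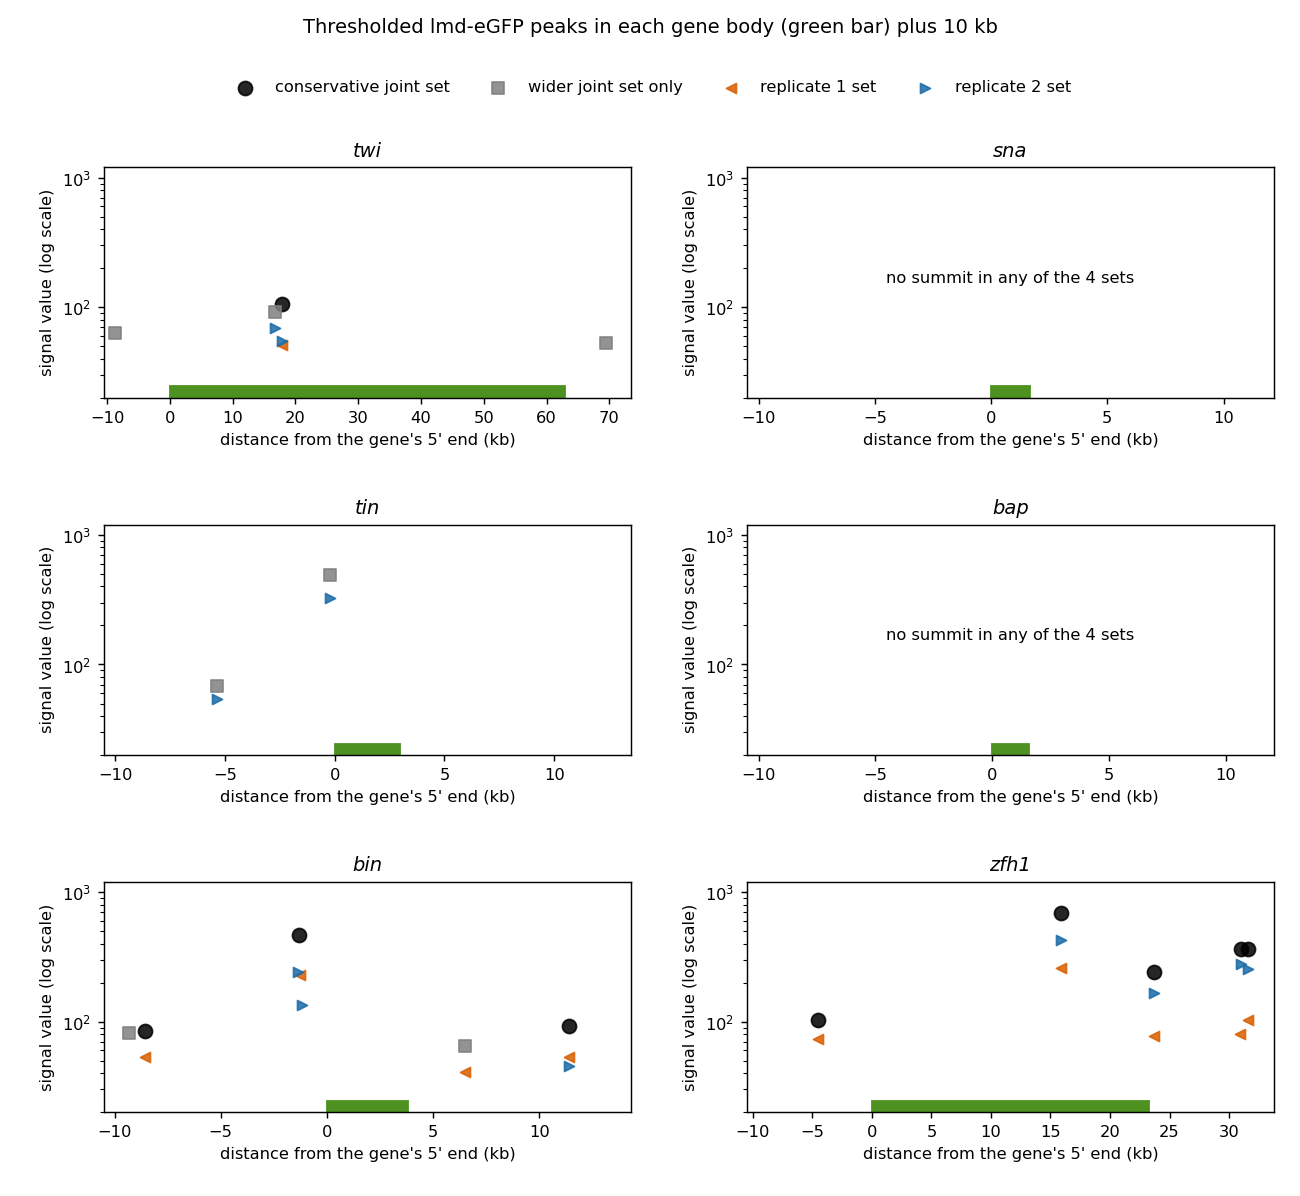
Signal (vertical axis, log scale) and distance from the 5′ end of the gene (horizontal axis, kb) for each peak of the 4 thresholded sets with its summit in the gene body (green bar) plus 10 kb. The panels of sna and bap are empty, that of tin has peaks of the wider set and of replicate 2, and the highest points are at zfh1 (687), tin (492) and bin (469).

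The 3 genes with conservative summits held 9 distinct ones, 5 at zfh1, 3 at bin and 1 at twi. The median gene held 1 summit, and 18.45% of genes held at least 3 and 4.13% at least 5. The windows of tin and bap overlap, and merged they form 5 stretches of 203 kb in all with those of the other genes. In these the 9 summits gave 0.0443 per kb, against 0.0373 per kb over the main arms. The density in the wider set was 0.0787 per kb (16 summits) against 0.0475, in replicate 1 it was 0.0492 (10 summits) against 0.0294, and in replicate 2 it was 0.0541 (11 summits) against 0.0414. The signals of the 9 conservative peaks ran from 85.5 to 687 with a median of 241, beside a median of 160.0 over the whole set, and 5 of the 9 lay above that median. The 16 peaks of the wider set had a median signal of 97.9, beside 130.1 over the whole set.

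**Figure D2:**
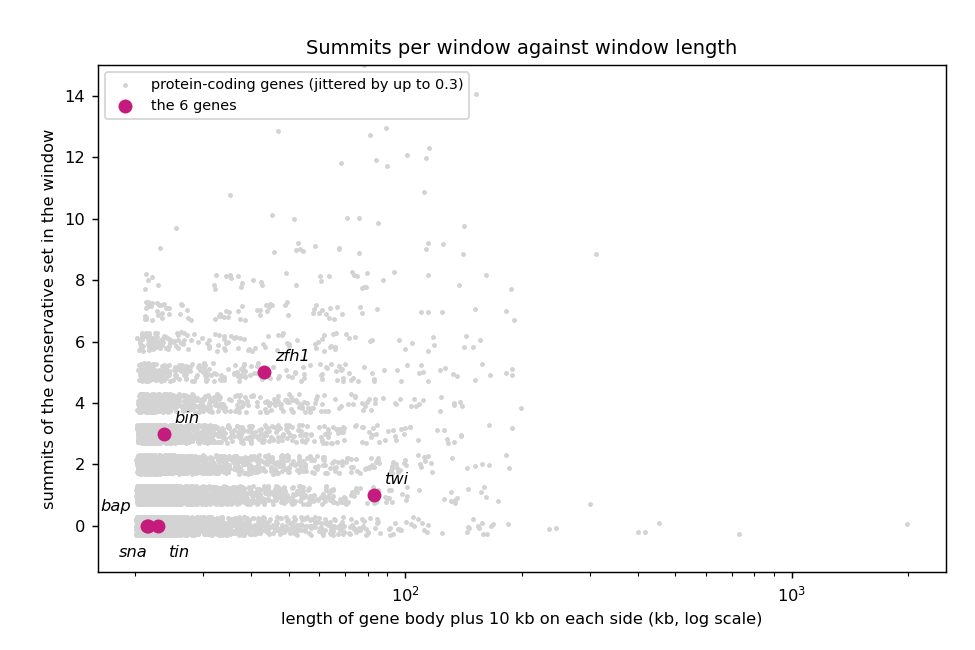
Number of conservative summits (vertical axis) against the length of the gene body plus 10 kb on each side (horizontal axis, kb, log scale) for protein-coding genes (grey, jittered) and the 6 genes (magenta). In a window of 23826 bp bin holds 3 summits while the longer window of twi holds 1, sna, tin and bap lie at 0, and 3 genes lie above the top of the axis.

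The early mesoderm gene twi (FBgn0003900, 2R, 22985374 to 23048325, plus strand) held 1 conservative peak of modest signal, in an intron of its longest transcript. Its body of 62952 bp comes from 1 of 3 annotated transcripts, and the other 2, of 2218 and 2004 bp, start at 23046108 and 23046322 near the 3′ end. The conservative peak, at 23003073 to 23003436, had a signal of 106, rank 3688 of 4998, and its summit lay 17881 bp inside the longest transcript, 4371 bp from the TSS of CG9896. Replicate 1 listed it with a signal of 51.1 and replicate 2 with 54.9, with summits 1 bp apart. It was thus in both replicate sets, at rank 3406 of 3929 in replicate 1 and rank 4335 of 5544 in replicate 2. With the gene body taken from the 2 shorter transcripts, a choice made after seeing the data, twi held 0 conservative summits.

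The wider set added 3 peaks at twi, all weak. At 23001903 to 23002266, also in a twi intron and 1170 bp from the conservative summit, the signal was 91.6, with 27.6 in replicate 1, below its threshold, and 68.9 in replicate 2, which kept it. At 22976449 to 22976812, 8743 bp upstream of the 5′ end and nearest to CG32834, the signal was 62.9, with 28.5 and 33.2 in the ranked lists of replicates 1 and 2. Neither replicate set kept that peak. At 23054606 to 23054969 the signal was 53.4, the lowest of the 16, with 36.0 and 20.9 in the ranked lists of replicates 1 and 2. Its summit lay 8466 bp from a twi TSS and 686 bp from that of Fatp2. The unthresholded lists held 106 and 100 peaks in the twi window, 1.28 and 1.21 per kb, against 0.838 and 0.672 per kb over the arms.

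The other early gene, sna (FBgn0003448, 2L, 15476593 to 15478260, minus strand), had 0 summits in its window in each of the 4 thresholded sets. The nearest summit of the conservative set lay 20729 bp from its TSS (signal 208), that of replicate 1 lay 20761 bp away and that of replicate 2 20723 bp away. The unthresholded lists still covered the sna window, with 28 peaks in replicate 1 and 15 in replicate 2, or 1.29 and 0.692 per kb. The strongest in replicate 1 had a signal of 28.7, rank 11172 of 112073, and a global IDR of 27.0%. The strongest in replicate 2 had a signal of 21.3, rank 19133 of 89892, and a global IDR of 88.5%. These lay 5809 and 7873 bp from the TSS on opposite sides of it, so the replicates did not share their strongest peak. At the sna promoter itself both ranked lists held a weak peak, of 23.7 in replicate 1 with its summit 29 bp from the TSS and of 17.3 in replicate 2 at 117 bp. Peaks of sna were therefore listed, and none reached the threshold.

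At tin (FBgn0004110, 3R, 21378977 to 21381970, plus strand) the sets disagreed over a strong promoter peak. The wider set placed it at 21378638 to 21378882, with the summit 212 bp upstream of the TSS, a signal of 492, rank 496 of 6361, and the −log10 of its global IDR at the cap of 5. Replicate 2 alone had it at 21378634 to 21378890 with a signal of 328, rank 412 of 5544. Replicate 1 listed no overlapping peak, even in its unthresholded list of 112073, where the nearest summit lay 3952 bp away. The ranked list behind the conservative set did not list the peak either. The joint lists draw on the same replicates, so this is not an absence independent of that in replicate 1. The sequence printed above is the one under this summit.

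Such an absence was rare among peaks as strong. Of the 412 peaks of replicate 2 that ranked at or above the tin promoter, 3 had no peak in the unthresholded list of replicate 1, which is 0.728%, while among all 5544 peaks of replicate 2 the number was 423, or 7.63%. The other 2 were promoter peaks at Gapdh2, a glycolytic enzyme gene (signal 675), and at nebu (599.5), both named after their values were seen. Conversely, 0 of the 412 strongest peaks of replicate 1 lacked a peak in the ranked list of replicate 2. Why the lists differ at the tin promoter was not tested.

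The second peak of the wider set at tin lay at 21373429 to 21373792, 5366 bp upstream of its TSS but 36 bp from that of pre-mod(mdg4)-N, one of the transcripts of the mod(mdg4) locus that the annotation treats as a gene. Its signal was 68.1, rank 5665 of 6361. Replicate 1 had 10.9 there, in the ranked list only, and replicate 2 had 54.5 in its thresholded set, a ratio of 4.99 and the highest of the 15 peaks listed in both. Neither peak of tin was in the conservative set, whose nearest summit lay 13545 bp from the TSS (signal 917). The strongest entry of replicate 1 in the tin window was 20.8, rank 27004 of 112073, with a global IDR of 64.2%.

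The visceral mesoderm gene bap (FBgn0004862, 3R, 21388880 to 21390449, plus strand) is the downstream neighbour of tin, 6909 bp away, and their windows overlap by 13091 bp. It had 0 summits in its window in each of the 4 thresholded sets. The nearest conservative summit lay 23448 bp from its TSS (signal 917), the nearest of the wider set 10115 bp away, which is the tin promoter peak just outside the bap window, and the nearest of replicate 1 20175 bp away. The strongest entry of the ranked lists had a signal of 24.5 in replicate 1 (rank 17626, global IDR 18.0%) and 21.6 in replicate 2 (rank 18558, global IDR 50.4%). Their summits lay 7088 and 5954 bp downstream of the TSS.

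Even weak peaks were missing across the tin and bap gene bodies. In replicate 1 no summit of the unthresholded list lay between 21374811 and 21394110, a stretch of 19299 bp that spans both genes, where the median distance between neighbouring summits was 719 bp. Stretches at least that long made up 11.0% of the bases of the arms. In replicate 2 the empty stretch ran from the tin promoter summit at 21378763 to 21394834, 16071 bp, and stretches that long made up 19.9% of the arms. The ranked lists held 5 and 9 peaks in the tin window and 8 and 3 in the bap window, for replicates 1 and 2, and all those of bap lay downstream of the gene. Per kb this was 0.217 and 0.391 at tin and 0.371 and 0.139 at bap, the lowest densities of the 6 genes in both lists.

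**Figure D3:**
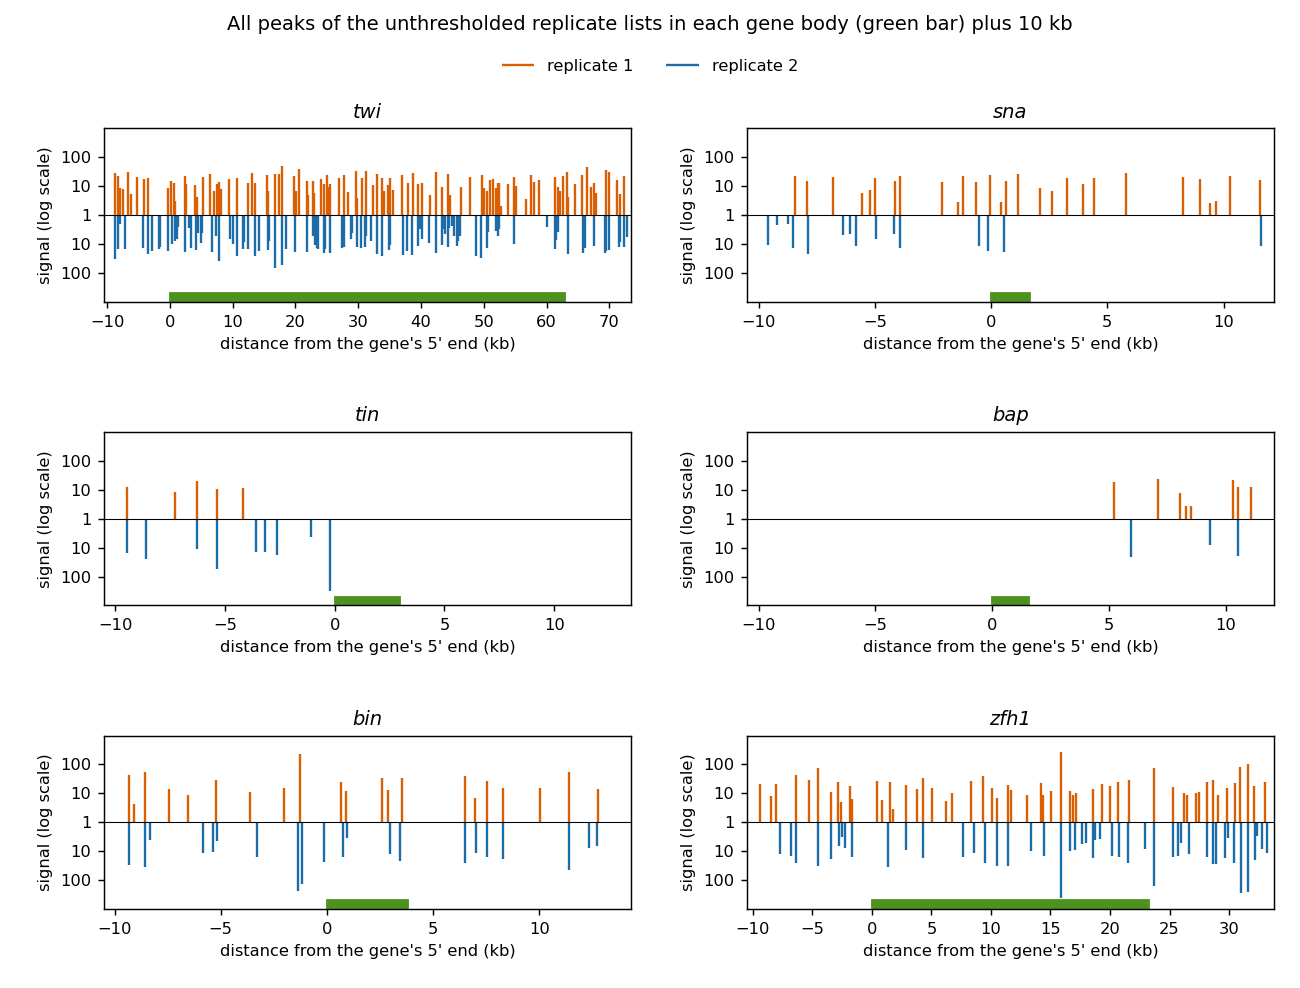
Every peak of the unthresholded lists of replicate 1 (upward, orange) and replicate 2 (downward, blue) in each gene body (green bar) plus 10 kb, by distance from the 5′ end (kb) and signal (log scale). The panels of twi and zfh1 are filled in both directions, while the tin and bap panels are empty over both gene bodies and the tall bar of 328 at the tin promoter points downward only.

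At bin (FBgn0045759, 3L, 6990622 to 6994447, plus strand) a strong upstream joint peak overlapped peaks of both replicate sets. It lay at 6989088 to 6989548, with the summit 1301 bp upstream of the TSS, a signal of 469 and rank 548 of 4998, above 89.1% of the set. Replicate 1 had a single peak inside it, at 6989348 to 6989440, with its summit at 6989359, a signal of 229 and rank 424 of 3929. Replicate 2 had 2 peaks there, with summits 207 bp apart. Its stronger peak, at 6989085 to 6989327, had a signal of 243, rank 682 of 5544, and overlapped no peak of replicate 1, even in the ranked list. Its weaker peak, at 6989337 to 6989542, had a signal of 134, rank 1662, and was the one that overlapped the replicate 1 peak, with a ratio of replicate 2 to replicate 1 of 0.583. The joint peak was 461 bp wide, where the median was 364 bp and 15 of 4998 peaks were as wide. Among all conservative peaks, 175 (3.50%) held at least 2 peaks of replicate 2 and 125 (2.50%) at least 2 of replicate 1.

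In the bin sequence printed above, the Tinman word TCAAGTG began 25 bp from the joint summit toward the gene, and the replicate 1 summit lay 38 bp to that side. The summit of the stronger replicate 2 peak lay 75 bp to the other side, away from the gene. FoxF words, the class that Biniou itself binds, stood at 79 bp on the far side of the summit and at 41 and 91 bp toward the gene. These matches are descriptions of the letters, not evidence of binding by those factors. The stretch has a GC content of 23.4%, the lowest of the windows counted below, and its Mef2, FoxF and homeodomain words are made mostly of A and T. How many such words its base content alone would give was not tested.

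The other conservative peaks of bin were weak and lay nearer to other genes. At 6981892 to 6982255, 8548 bp upstream and 2030 bp from the TSS of Galphai, which encodes a G protein subunit, the signal was 85.5, with 53.7 in the set of replicate 1 and 35.0 in replicate 2, in its ranked list only. At 7001831 to 7002194, in an intron of the collagen gene Mp and 11391 bp past the bin 5′ end, the signal was 92.8, with 53.6 in replicate 1 and 45.9 in replicate 2, in both sets. The wider set added 2 more. At 6981108 to 6981471, 1246 bp from the TSS of Galphai, the signal was 82.0, with 44.2 and 29.3 in the ranked lists of replicates 1 and 2. At 6996941 to 6997304, 1720 bp from the TSS of Mp, it was 64.5, with 41.2 in the set of replicate 1 and 24.9 in the ranked list of replicate 2. All 4 of these weaker bin peaks had a higher signal in replicate 1, with ratios of replicate 2 to replicate 1 from 0.603 to 0.856.

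The gene zfh1 (FBgn0004606, 3R, 30765926 to 30789202, plus strand) had the most conservative summits and the highest signal of the 6 genes. Its 5 summits were the same in the wider set, where bin also had 5. The strongest, at 30781643 to 30781911, had a signal of 687 and rank 259 of 4998, above 94.8% of the set. It lay in an intron, 15852 bp past the 5′ end and 1480 bp upstream of the second annotated TSS, at 30783258, from which the shorter zfh1 transcript starts. The annotation also places an antisense RNA gene, asRNA:CR45189, on the minus strand over this summit (30781178 to 30783645). Replicate 1 had a signal of 261 there (rank 330 of 3929) and replicate 2 had 427 (rank 250 of 5544), with summits 1 bp apart. The site was thus among the strongest of both sets.

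The remaining zfh1 peaks lay outside its body. At 30761224 to 30761587, 4520 bp upstream of the gene, the signal was 103, with 72.9 in the set of replicate 1 and 33.3 in the ranked list of replicate 2. At 30789419 to 30789782 it was 241, with 78.0 in replicate 1 and 166 in replicate 2, and the summit lay 399 bp past the 3′ end of zfh1 and 24 bp outside the body of the neighbour wts, the gene of the Hippo pathway kinase Warts. Replicate 1 placed its summit 48 bp from the joint one, inside the 3′ UTR of wts.

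A pair of peaks lay 595 bp apart in an intron of wts. The first, at 30796810 to 30797016, had a signal of 367, with 79.8 in replicate 1 and 278 in replicate 2. The second, at 30797386 to 30797611, had 362, with 103 in replicate 1 and 257 in replicate 2. Both were in both replicate sets and nearer to the TSS of wts than to that of zfh1, so the window does not show which gene they serve. In zfh1 the signal was higher in replicate 2 at 4 of 5 peaks, the exception being the upstream peak. Over all conservative peaks listed in both replicates the median ratio of replicate 2 to replicate 1 was 1.27, so this direction is not particular to zfh1.

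**Figure D4:**
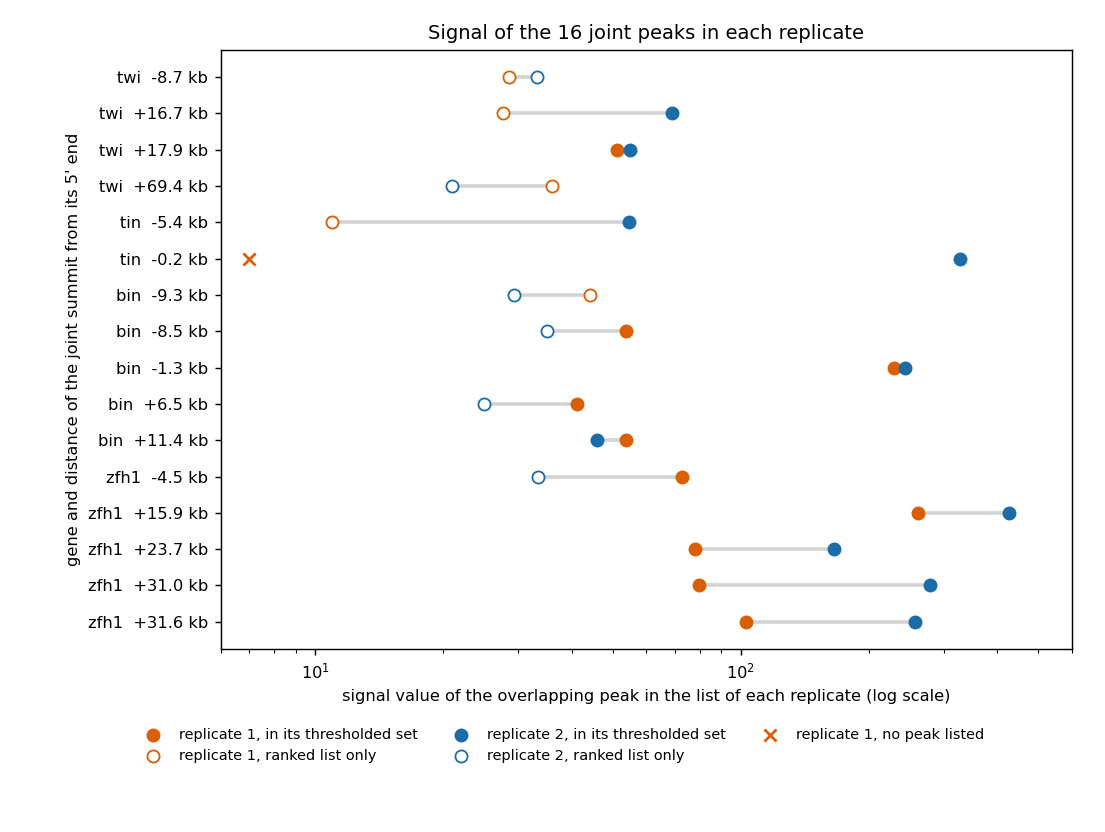
Signal of the overlapping peak in each replicate (horizontal axis, log scale) for the 16 joint peaks of the wider set, by gene and distance from the 5′ end; filled points passed the threshold of that replicate, open points are in its ranked list only, and at the strong bin site the stronger of 2 replicate 2 peaks is drawn, which does not overlap the replicate 1 peak. The tin promoter has a cross in place of a replicate 1 value, at an arbitrary position, and the 4 zfh1 peaks from +15.9 kb onward lie farther right in replicate 2.

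Over the 9 conservative peaks, 7 overlapped a peak of both replicate sets, 77.8% (Wilson 95% interval 45.3 to 93.7), against 63.7% of the whole conservative set. The other 2, bin at −8548 bp and zfh1 at −4520 bp, were in the set of replicate 1 only, and 0 were in that of replicate 2 only. Over the whole set the balance was the other way, with 7.72% in replicate 1 only and 19.3% in replicate 2 only. In the wider set, 7 of 16 peaks were in both replicate sets, 3 in replicate 1 only, 3 in replicate 2 only and 3 in neither, against 49.96% in both over the whole set. The ratio of the signal in replicate 2 to that in replicate 1 had a median of 1.07 over the 9 peaks, from 0.458 to 3.49, with the stronger replicate 2 peak taken at the strong bin site. Over the 4955 conservative peaks listed in both replicates it had a median of 1.27, with a 10th percentile of 0.642 and a 90th of 2.31. Those of the 9 peaks above that range were the pair in wts, at 3.49 and 2.49, and zfh1 at −4520 bp lay below it. With 2 samples, the spread between embryos and differences between libraries cannot be told apart, and the interval covers counting error only. It also counts the 9 peaks as independent draws, but 5 lie at zfh1 and 3 at bin, so it is only a rough guide.

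No conservative peak of the 6 genes was a promoter peak. Of the 9 summits, 5 lay in introns and 4 outside protein-coding genes. Within 500 bp of the TSS of any protein-coding gene lay 0 of the 9, beside 38.2% of all conservative summits. Counted as independent draws, 0 of 9 would allow a share of up to 33.3%. But 5 of the 9 lie at zfh1 alone, so they are not independent, and this limit is no test against the 38.2%. In the wider set 2 of 16 were at promoters, both in the tin window, 6 were in introns and 8 outside genes. The nearest TSS belonged to the gene itself for 4 of the 9 and 5 of the 16. A site within 2 kb of the own TSS was present at bin and zfh1 in the conservative set and at tin as well in the wider set. Apart from conservative promoter summits, shares over all peaks are not given for these placements. The counts are therefore not read as particular to the 6 genes.

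Words known for factors of this network, and others such as those of Zelda, DREF and GAGA factor, were counted on both strands within 100 bp of the summit. The count covered the 9 conservative windows of the 6 genes and all 4998 conservative windows, with the 16 windows of the wider set beside them. Tinman TCAAGTG was in 3 of the 9, at twi (signal 106), bin (469) and bin (92.8), and in 3.58% of all windows, and the wider set added none. The Twist E-boxes CATATG or CACATG were in 1 of the 9, at bin (85.5), against 14.35% of all windows. The wider set raised this to 5 of 16, with the tin promoter, 2 twi peaks and the other bin peak near Galphai. Shares over all windows of the wider set are not given, so the counts out of 16 have no matching background here. The Snail and Zfh1 core CAGGTG was in 1 of the 9, under the conservative twi peak, against 5.38%. The Mef2 motif was in 2 of the 9, at bin (469) and at zfh1 (367), against 12.5%. FoxF TAAACA was in 1 of the 9, against 24.75%, and in 3 of the 16. Homeodomain TAATTA was in 2 of the 9, against 18.4%. The GAGA factor word GAGAGAG was in 1 of the 9, under the conservative twi peak, against 2.68%. Gli-type CCACCCA (2.26% of all windows), Zic-type CCCGCTG (1.08%), Zelda CAGGTAG (0.860%) and DREF TATCGATA (2.36%) were in 0 of the 16. The Mef2 and FoxF words of bin overlap. The GC content of the 16 windows had a median of 34.8%, the same as over all conservative windows, and ran from 23.4% at the strong bin peak to 53.2% at bin near Galphai.

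Of 35 other genes of early mesoderm, visceral mesoderm and heart, all matched to the annotation, 28 had a conservative summit in the body plus 10 kb (80.0%), beside 3 of the 6 and 62.6% of all genes. Of the same 35, 29 had one in the wider set, 27 in replicate 1 and 29 in replicate 2. Window lengths were not matched between the lists. The 5 with the strongest peaks were Mef2 (signal 1700, at the promoter of Pdrg1), org-1, a T-box gene (965, at its own promoter), the forkhead genes slp2 and slp1, which share a peak of 642, and the transporter gene Mdr49 (571, at the promoter of SCCRO3). All of these peaks were in both replicate sets and, except that of slp1 and slp2 and that of Mdr49, exceeded the strongest peak of zfh1. Like sna, tin and bap, 7 of the 35 genes had no conservative summit, namely pyr, Alk, Hand, svp, lbe, tsh and Him.

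For the 3 genes with a peak in all 4 sets, the genes most like them were found by the signal percentile of the strongest peak in each set, over the 7198 genes with one in all 4. For twi these were CG8929 and Tmtc1, at distances of 2.18 and 3.17 percentile points. For bin they were E(spl)m2-BFM and E(spl)m3-HLH, both at 0.655, and for zfh1 dtn and Btnd, both at 0.274. Each pair at an equal distance had the same 4 percentiles, as genes that share a strongest peak would have. The genes of such a pair may therefore not be separate cases. The 4 sets come from the same reads, so the likeness is that of a single peak strength and not of a pattern over tissues or conditions.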

How the data were processed

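The 2 samples were anti-GFP ChIP-seq libraries of lmd-eGFP embryos, and the authors deposited peak lists of each replicate and of both together, in dm6 per the labels. For the aligner and peak caller, names were not given in the sources used here. Signal, the score (830 to 1000 in the thresholded sets), the other column used, which gives the summit position, and the −log10 of the global IDR were taken as deposited by the authors, whose threshold lies at an IDR of 0.01. Sites were placed with Ensembl annotation release 115 on genome Release 6. Summits at most 500 bp from a TSS counted as promoter summits, and peaks overlapping by at least 1 bp were shared. Motifs were searched on both strands.

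The named genes were the 6, the gene of the nearest TSS to each of their peaks, the 5 of the mesoderm list with the strongest peaks, and the 2 most alike for each gene with peaks in all 4 sets. Members and lists were chosen with earlier results of these data known. Alternatives were the wider set, each replicate alone, an IDR of 0.001, flanks of 2, 5 and 20 kb, placement by overlap, and other rules for sharing and promoters. Counting and overlap code, in Python 3.11.15 with pandas 2.3.3, numpy 2.4.6 and scipy 1.17.1, was tested on simulated data. Figures used matplotlib 3.10.9.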

Additional observations from a re-analysis of the deposited data

How the results depend on the processing

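Of 91 values recomputed for 10 results, 68 stayed within 1.5 times the reported count or, for shares, within its interval, and 23 moved. Those intervals treat peaks as independent, which they are not, so staying or moving is only a rough label for shares. The 68 include values that could not move, because the shorter twi transcripts leave the counts of the other genes unchanged by construction. The count of genes with a summit ran from 2 to 4, and sna and bap stayed at 0 in each alternative. The 9 distinct summits became 16 in the wider set, 5 at a global IDR of 0.001, and 4, 5 and 16 with flanks of 2, 5 and 20 kb. The 1 summit of twi became 4 in the wider set, 0 at the stricter IDR, 3 with 20 kb and 0 with its shorter transcripts, an alternative chosen after seeing the data, and ran from 1 to 2 with either replicate left out. The 0 of tin became 2 in the wider set and 1 with 20 kb, and ran from 0 to 2 with either replicate left out, the 2 being without replicate 1. The 3 of bin became 5, 1 at the stricter IDR, 1 with 2 or 5 kb and 6 with 20 kb. The 5 of zfh1 became 2 with 2 kb and 3 with 5 kb. The share in both replicate sets (77.78%) became 43.75% in the wider set, 100% at the stricter IDR and 100% with 2 kb. It cannot be computed with a replicate left out. Flanks add or remove sequence by construction, and the other causes were not tested. Depth is unknown and limits which weak peaks could be called. No paired analysis was possible because both samples belong to 1 group.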
